A study of Saccharomyces cerevisiae with 39 samples.

Results

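The H/ACA box snoRNAs of budding yeast are 29 small nucleolar RNAs that carry the H and ACA sequence boxes. They were chosen as the rows of the count table that carry the names of this class, without use of any measured value, and all 29 names were found among its 8898 features. Of these, 28 are annotated as guides for pseudouridylation and snR30 acts in pre-rRNA cleavage. RNA was sequenced from 39 cultures in 13 groups of 3 libraries. The series title presents the missense alleles as yeast models of disease-linked RNA exosome mutations and names translation as the outcome. The RNA exosome is the complex that trims and degrades RNA from the 3′ end.

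In the rrp6Δ group the chromosomal RRP6 gene was replaced by kanMX4 in a MATa met15Δ0 strain, and the plasmid carried no exosome gene. Its control, RRP6, had the same deletion and wild-type RRP6 on the plasmid. The rrp4-G226D group carried this missense allele in a MATα lys2Δ0 strain deleted for RRP4 with NEO, and the RRP4 group carried the wild-type gene in the same background. The rrp40-W195R and rrp40-S87A groups and their RRP40 control were built in a MATa strain with rrp40Δ::NEO. The rrp46-L191H, rrp46-L127T and rrp46-Q86I groups and their RRP46 control were built in a MATα lys2Δ0 strain with rrp46Δ::kanMX4. The rrp45-I15P group and its RRP45 control were built in a MATα strain with rrp45Δ::NEO. Every strain was also ura3Δ0, leu2Δ0 and his3Δ1, and every plasmid was the low-copy LEU2 vector pRS315, so the controls too relied on a plasmid copy. The cultures, of 10 mL in minimal medium that lacked leucine, were kept at 37 °C for 5 h. Another label names BY4741 for all strains, although BY4741 is a MATa strain.

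Each H/ACA snoRNA folds into a pair of hairpins, and most pair with ribosomal RNA so that the pseudouridine synthase Cbf5 converts a chosen uridine to pseudouridine. Nearly all of the yeast genes are transcribed by RNA polymerase II as units of their own. Their transcription ends with the help of the RNA-binding proteins Nrd1 and Nab3, and the nuclear exosome with Rrp6 and the TRAMP complex trims the 3′ end of the precursor. In these counts, mature snoRNA, precursor and readthrough fragments inside the annotated gene are summed.

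The genes below are printed, from RefSeq build R64, because they showed the largest increases or decreases in rrp6Δ or a role in pre-rRNA processing. Capitals mark the box near the 3′ end, read as the last ACA, or else ATA or AAA, within the final 12 bases. The genes that were higher in rrp6Δ were snR80, a guide for 18S and 25S rRNA, snR81, a guide for 25S rRNA and the U2 spliceosomal RNA, snR161 and snR35, both guides for 18S rRNA, and snR10, a 25S guide that also takes part in pre-rRNA processing.
snR80 (chrV:52150-52320, minus strand): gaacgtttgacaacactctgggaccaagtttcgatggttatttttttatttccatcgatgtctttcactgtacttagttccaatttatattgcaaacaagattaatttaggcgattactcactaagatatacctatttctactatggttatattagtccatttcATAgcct
snR81 (chrXV:234346-234546, plus strand): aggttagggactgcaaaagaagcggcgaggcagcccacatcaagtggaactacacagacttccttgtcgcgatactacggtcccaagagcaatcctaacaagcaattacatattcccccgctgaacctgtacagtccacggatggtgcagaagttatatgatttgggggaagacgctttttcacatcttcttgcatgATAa
snR161 (chrII:307185-307345, minus strand): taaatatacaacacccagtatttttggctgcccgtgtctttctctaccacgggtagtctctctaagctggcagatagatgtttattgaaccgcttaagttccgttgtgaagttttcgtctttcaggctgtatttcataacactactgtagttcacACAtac
snR35 (chrXV:759326-759529, minus strand): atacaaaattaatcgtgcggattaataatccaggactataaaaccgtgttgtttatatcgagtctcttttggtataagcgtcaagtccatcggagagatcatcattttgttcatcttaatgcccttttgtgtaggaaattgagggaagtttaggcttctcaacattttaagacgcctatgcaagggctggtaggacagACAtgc
snR10 (chrVII:345986-346230, plus strand): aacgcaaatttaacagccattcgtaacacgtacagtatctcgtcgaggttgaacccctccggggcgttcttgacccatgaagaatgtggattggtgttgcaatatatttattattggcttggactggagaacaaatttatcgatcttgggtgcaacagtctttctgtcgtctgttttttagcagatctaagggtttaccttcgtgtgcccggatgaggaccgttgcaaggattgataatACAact

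The longest members, snR86 with 1004 bases, snR30 with 606 and snR84 with 550, are shown by their last 120 bases. snR86 and snR84 guide pseudouridylation of 25S rRNA and had the largest decreases in rrp6Δ.
snR86 (chrXIII:762110-762229, minus strand): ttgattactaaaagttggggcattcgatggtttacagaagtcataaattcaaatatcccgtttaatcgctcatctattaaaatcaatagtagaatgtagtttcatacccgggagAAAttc
snR84 (chrIV:1492477-1492596, minus strand): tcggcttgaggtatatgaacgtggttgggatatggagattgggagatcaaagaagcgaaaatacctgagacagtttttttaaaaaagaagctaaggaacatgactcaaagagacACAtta
snR30 (chrXII:199270-199389, plus strand): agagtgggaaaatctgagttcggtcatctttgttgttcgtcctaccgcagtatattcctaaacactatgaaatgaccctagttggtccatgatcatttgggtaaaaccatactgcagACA

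Downstream of the 3′ ends, the transcribed strand was searched for TCTT, the core of the Nab3 site, and for GTAA and GTAG, cores of Nrd1 sites. Matches can share a base at their ends, as where GTAG runs into GTAA, and only the snoRNA strand was read, since both proteins bind RNA. The first 150 bases after snR80 and after snR86 are printed with these motifs in capitals, because these 2 guides moved furthest in opposite directions among those with ample counts.
after snR80 (chrV:52000-52149, minus strand): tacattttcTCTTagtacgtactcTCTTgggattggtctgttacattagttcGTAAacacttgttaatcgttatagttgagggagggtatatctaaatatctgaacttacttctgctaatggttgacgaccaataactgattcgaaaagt
after snR86 (chrXIII:761960-762109, minus strand): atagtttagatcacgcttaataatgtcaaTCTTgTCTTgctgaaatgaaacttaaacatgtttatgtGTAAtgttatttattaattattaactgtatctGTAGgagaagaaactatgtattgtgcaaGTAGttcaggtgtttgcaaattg

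All 27 members with genes of their own held TCTT in this window, or 100%, against 67.2% of the windows after 6404 other genes. GTAG was found after 15 of the 27, or 55.6%, against 29.1% of other genes. GTAA was also found after 15 of the 27, a share of 55.6% that lay close to the 54.5% of other genes. Each window starts at the annotated end of the gene. Whether that is also the end of the RNA was not checked for the other genes, so the windows may not be alike. These are matches of letters and were not tested as binding sites.

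Library totals ran from 17244127 to 53642418 counts. The H/ACA snoRNAs summed to between 1.48% and 2.39% of a library, and snR30 alone gave 33.9% to 45.3% of that sum. No member was at 0 in any library, the lowest single count was 13 for snR81, and all 29 passed the filter on low counts in every comparison. RRP6 itself had 6.38, 5.17 and 5.24 CPM in rrp6Δ, against 727, 584 and 747 CPM in RRP6. CPM are counts scaled to a common library total, in the member values below with TMM factors. RRP46 stood at 75.1 to 95.8 CPM in rrp46-Q86I, 405 to 447 CPM in rrp46-L127T and 912 to 979.6 CPM in rrp46-L191H, against 489 to 531 CPM in RRP46. RRP4 stood at 705 to 738 CPM in rrp4-G226D, against 349 to 379 CPM in RRP4, and RRP40 at 311 to 369 CPM in rrp40-W195R, against 182 to 222 CPM in RRP40. In rrp40-S87A and rrp45-I15P the mutated gene overlapped its control. The mating-type genes followed the strain labels, with STE2, the receptor of MATa cells, at 320.4 to 610.1 CPM in the groups labelled MATa and 5.90 to 20.4 CPM in those labelled MATα.

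Among the 15 control libraries, levels per kilobase of gene length spanned 3194-fold by the medians. snR30 was highest, with a median of 13628 CPM per kb and a range of 8776 to 16325. The 25S guides snR37 and snR86 followed at medians of 6564 and 4181 CPM per kb. At the other end, snR80 had a median of 140.2, snR161 of 129.7, snR10 of 10.3 and snR81 of 4.27 CPM per kb. The order was a gradual one, since 25 of the 28 pairs of neighbours overlapped in their ranges. Gaps without overlap lay only below snR30, below snR85 and below snR161. snR10 overlaps the open reading frame YGL088W in the annotation, and how reads over both were assigned is not given in the sources used here, so its level is uncertain.

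The sum over all 29 members overlapped between mutant and control. It was 1.48% to 1.67% of the library in rrp6Δ, against 1.57% to 1.59% in RRP6, and 1.97% to 2.09% in rrp4-G226D, against 1.76% to 1.98% in RRP4. In rrp40-W195R it was 1.89% to 2.08%, against 1.91% to 1.98% in RRP40, and in rrp46-L191H 2.31% to 2.37%, against 2.0% to 2.39% in RRP46. All 4 pairs of ranges overlapped.

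With loss of Rrp6, the exonuclease bound to the nuclear exosome, some H/ACA snoRNAs rose and others fell, as did the tested features at large. In rrp6Δ, 9 of the 29 were higher and 13 lower than in RRP6 at an adjusted p under 0.05, where 42.6% of all tested features were called higher and 40.9% lower. In all 22 called members the libraries of rrp6Δ and RRP6 did not overlap, and 7 rose and 3 fell by at least 2-fold. Shares of all features without overlap or with a 2-fold change are not given here, so these counts are not read as particular to the class. The median log2 fold change of the 29 was -0.11, against 0.03 over all features tested. Counts are relative within a library, so a change of RNA per cell and a change of the other RNAs cannot be told apart. Scaling by library totals in place of TMM raised the median of all features by 0.60 on the log2 scale and gave 20 members higher and 5 lower, where 74.2% of all features were then higher and 14.4% lower. The 9 higher members and the 5 lower members snR31, snR44, snR84, snR86 and snR191 were called in the same direction under both scalings. For snR37, snR42, snR82, snR83 and snR189 the sign turned positive by library totals, and all of these but snR37 were then called higher.

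The pre-rRNA processing members moved in opposite directions in rrp6Δ. snR10 had 11.6, 10.9 and 11.1 CPM in rrp6Δ, against 2.70, 2.96 and 2.70 CPM in RRP6. Every rrp6Δ library was above every RRP6 library (log2 fold change 2.01, SE 0.11, adjusted p = 4.19e-11), a 4.04-fold increase. YGL088W, which overlaps snR10, was also higher, at 0.503 ± 0.0712 CPM in rrp6Δ and 0.161 ± 0.0215 CPM in RRP6 (SD, n = 3 each, log2 fold change 1.60). No difference in YGL088W was called in rrp4-G226D (log2 fold change 0.0028, SE 0.39, adjusted p = 0.995) or in rrp46-L191H (0.27, SE 0.36, adjusted p = 0.538). In those 2 mutants snR10 rose by 1.43 and 1.88. The YGL088W means there and in their controls were low, from 0.269 CPM in RRP46 to 0.315 CPM in RRP4, and its SE was wide. In rrp40-W195R, where snR10 rose by 1.40, YGL088W was not among the features tested. Whether snR10 rose apart from YGL088W was not tested. snR30 had 4327, 4505 and 4905 CPM in rrp6Δ, against 7659, 7141 and 7183 CPM in RRP6. Its libraries did not overlap (log2 fold change -0.68, SE 0.06, adjusted p = 1.75e-08), but the difference was -0.08 and not called by library totals (adjusted p = 0.179).

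Among the guides with a mean of at least 10 CPM, the largest increases were in snR80, snR161 and snR35, which rank low among the members in controls. snR80 had 209.9, 205 and 293 CPM in rrp6Δ, against 34.7, 41.3 and 34.7 CPM in RRP6. The rrp6Δ values were 6.45-fold higher, with replicate 3 above the other two (log2 fold change 2.69, SE 0.20, adjusted p = 0.0001). snR161 had 115, 109 and 134 CPM in rrp6Δ, against 25.2, 30.2 and 27.9 CPM in RRP6. This was a 4.34-fold increase with no overlap (log2 fold change 2.12, SE 0.09, adjusted p = 8.84e-09). snR35 had 391, 374 and 420.2 CPM in rrp6Δ, against 109, 123 and 114 CPM in RRP6. It rose 3.42-fold in the same way (log2 fold change 1.77, SE 0.06, adjusted p = 1.86e-13). snR81, named after its values were seen since its mean lay under the 10 CPM required for naming, averaged 8.95 ± 0.965 CPM in rrp6Δ and 1.29 ± 0.182 CPM in RRP6 (SD, n = 3 each) with a log2 fold change of 2.80 (SE 0.15). The remaining increases were in snR49, a guide for both rRNAs, in the 25S guides snR5 and snR9 and in snR32, another 25S guide, with log2 fold changes of 1.62, 1.40, 0.97 and 0.50.

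The largest decreases were in 25S guides. snR86 had 429, 425 and 442 CPM in rrp6Δ, against 3621, 3085 and 3554 CPM in RRP6. It was 7.92-fold lower in rrp6Δ, the largest decrease of any member (log2 fold change -2.98, SE 0.06, adjusted p = 1.23e-14), and the log2 difference was -2.38 by library totals. snR84 had 137, 149.98 and 151 CPM in rrp6Δ, against 455, 460.2 and 457 CPM in RRP6. It was 3.13-fold lower (log2 fold change -1.65, SE 0.05, adjusted p = 8.69e-14). snR191, which lies in an intron of NOG2, had 268, 265 and 318 CPM in rrp6Δ, against 554, 568 and 587 CPM in RRP6. Its decrease was 2.01-fold (log2 fold change -1.01, SE 0.06, adjusted p = 2.3e-09). snR44, a guide for both rRNAs in an intron of RPS22B, averaged 77.2 ± 1.18 CPM in rrp6Δ and 141 ± 8.42 CPM in RRP6 (SD, n = 3 each), a log2 fold change of -0.87 (SE 0.05). The other called decreases, from snR31 at -0.93 to snR189 at -0.23, were smaller. No difference was called for the 7 members snR8, snR11, snR33, snR34, snR36, snR46 and snR85, with log2 fold changes of -0.20 to 0.17.

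**Figure D1:**
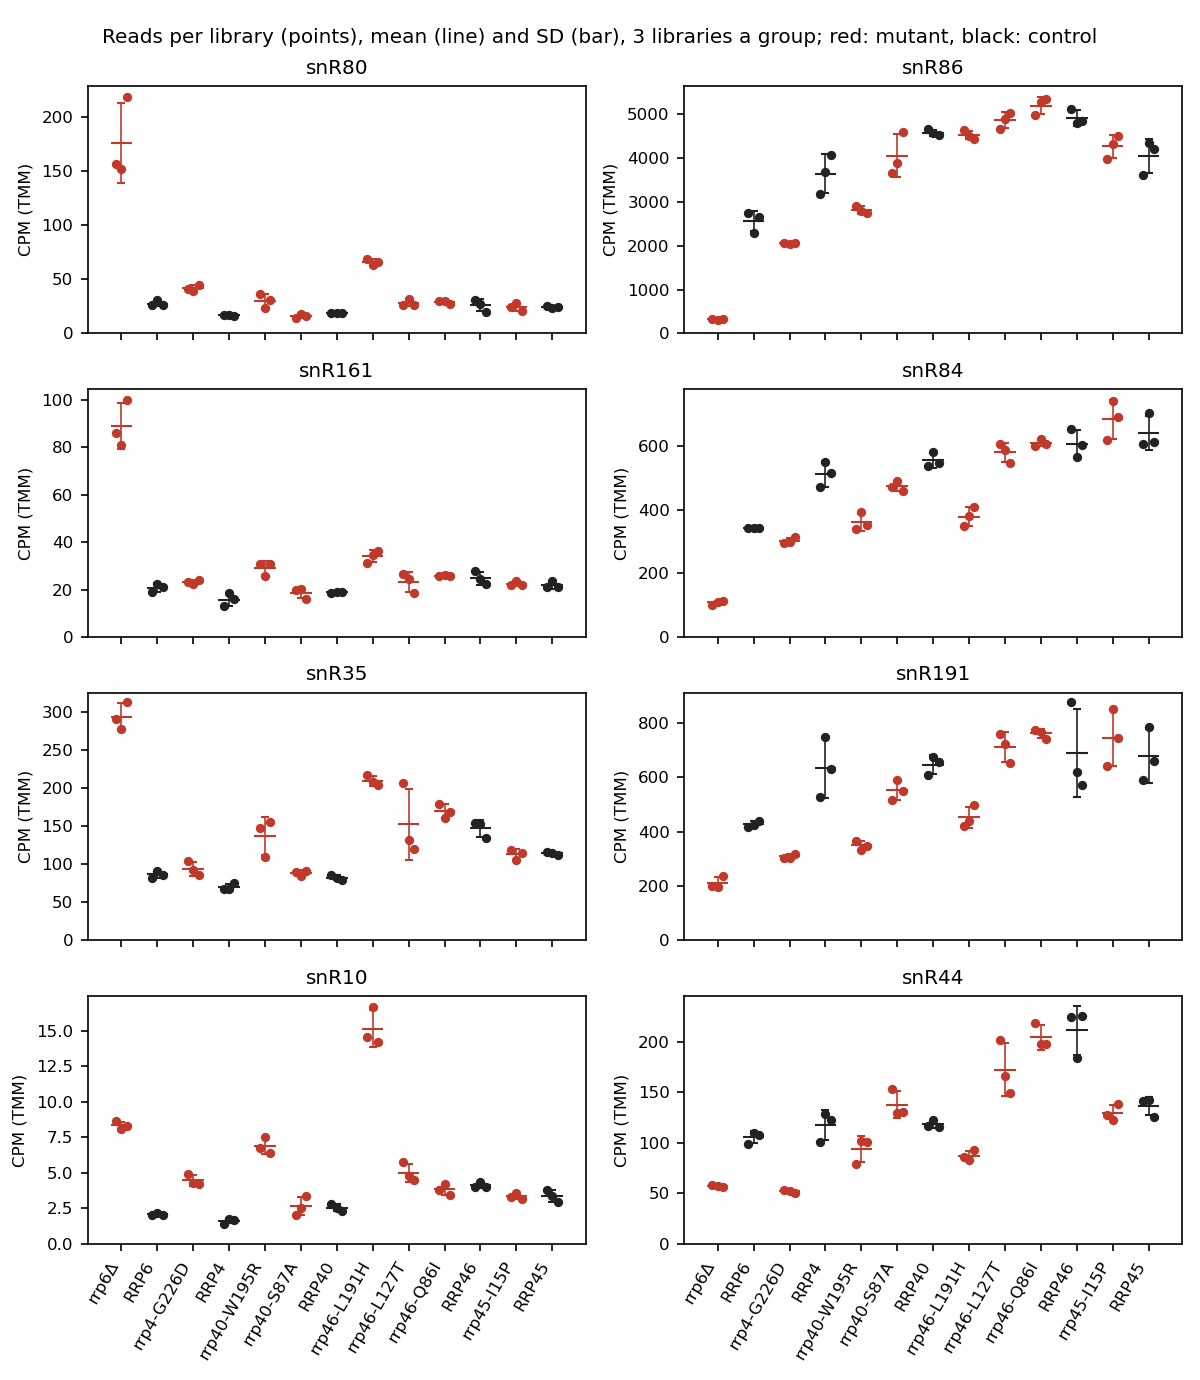
Level of 8 H/ACA snoRNAs in each of the 39 libraries, in CPM after TMM scaling over all libraries (vertical axes, from 0), by group (horizontal axis); points are libraries, lines are means and bars are SD of 3, with mutants in red and controls in black. snR80, snR161 and snR35 stand highest in rrp6Δ and snR10 in rrp46-L191H, while snR86 and snR84 are lowest in rrp6Δ.

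In rrp4-G226D, which alters an RNA-binding cap subunit of the exosome, 12 members rose and 9 fell, where 36.1% of all features were called higher and 35.9% lower. By library totals 20 were higher and 4 lower, where 66.8% of all features were higher and 12.1% lower and their median was shifted by 0.33, and snR3, snR31 and snR83 changed sign. The 12 increases and the decreases of snR44, snR84, snR86 and snR191 were called under both scalings. snR10 had 5.43, 4.69 and 4.66 CPM in rrp4-G226D, against 1.55, 1.92 and 1.84 CPM in RRP4, which is a 2.69-fold increase (log2 fold change 1.43, SE 0.14, adjusted p = 1.41e-08). snR30 averaged 8197 ± 394 CPM in rrp4-G226D and 8764 ± 223 CPM in RRP4 (SD, n = 3 each), and its groups overlapped (adjusted p = 0.0973).

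The guides snR80, snR49 and snR5 gave the largest increases of the ampler members in rrp4-G226D. snR80 had 45.3, 42.8 and 49.6 CPM in rrp4-G226D, against 18.3, 18.2 and 17.8 CPM in RRP4, or 2.53-fold more (log2 fold change 1.34, SE 0.06, adjusted p = 5.26e-13). snR49 averaged 146 ± 3.11 CPM in rrp4-G226D and 78.5 ± 2.33 CPM in RRP4, and snR5 113 ± 2.49 CPM in rrp4-G226D and 74.2 ± 5.95 CPM in RRP4 (SD, n = 3 each). Their log2 fold changes were 0.89 (SE 0.04) and 0.60 (SE 0.05), with no overlap of libraries in either. The intronic members led the decreases. snR44 had 58.9, 57.2 and 55.8 CPM in rrp4-G226D, against 109.9, 140.0 and 135 CPM in RRP4. It was 2.25-fold lower (log2 fold change -1.17, SE 0.08, adjusted p = 1.45e-06). snR191 had 335, 334 and 350.3 CPM in rrp4-G226D, against 572, 817 and 692 CPM in RRP4, with RRP4 libraries that differed among themselves but stayed above all 3 mutant libraries (log2 fold change -1.03, SE 0.14, adjusted p = 0.00137). snR86 averaged 2255 ± 15.5 CPM in rrp4-G226D and 3971 ± 499 CPM in RRP4 (SD, n = 3 each), a log2 fold change of -0.82 (SE 0.08).

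In rrp40-W195R, which alters another cap subunit, 12 members rose and 9 fell, where 26.0% of all features were higher and 26.5% lower. By library totals the numbers were 20 and 3, where the shares of all features were 63.6% and 7.87%, with a shift of 0.33 in their median. The decreases of snR84, snR86 and snR191 were called under both scalings, and snR43 and snR83 changed sign, snR43 then being called higher. snR10 had 6.40, 7.13 and 6.04 CPM in rrp40-W195R, against 2.69, 2.42 and 2.23 CPM in RRP40, a 2.63-fold increase (log2 fold change 1.40, SE 0.14, adjusted p = 1.62e-05). snR30 averaged 6887 ± 75.7 CPM in rrp40-W195R and 8858 ± 73.4 CPM in RRP40 (SD, n = 3 each), a log2 fold change of -0.36 that was -0.03 and not called by library totals (adjusted p = 0.593).

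Of the guides in rrp40-W195R, snR49 had 128, 173 and 137 CPM in rrp40-W195R, against 85.2, 86.4 and 91.9 CPM in RRP40. It was 1.66-fold higher (log2 fold change 0.73, SE 0.11, adjusted p = 0.000601). snR35 had 139.5, 103 and 146 CPM in rrp40-W195R, against 82.1, 78.2 and 76.2 CPM in RRP40, with the lowest mutant value in replicate 2 but still above every RRP40 library (log2 fold change 0.72, SE 0.12, adjusted p = 0.00172). snR80 averaged 28.6 ± 6.08 CPM in rrp40-W195R and 17.7 ± 0.0334 CPM in RRP40 (SD, n = 3 each), a log2 fold change of 0.70 (SE 0.14). Replicate 2 of rrp40-W195R also had less of the 25S guide snR3. That guide had 632, 283 and 571 CPM in rrp40-W195R, against 307, 316 and 269.6 CPM in RRP40, so the groups overlapped and no difference was called (adjusted p = 0.104). The decreases were led by snR191, with 346, 315 and 329 CPM in rrp40-W195R, against 583, 646 and 629 CPM in RRP40. It was 1.88-fold lower without overlap (log2 fold change -0.91, SE 0.06, adjusted p = 1.33e-06). snR86 averaged 2653 ± 92.4 CPM in rrp40-W195R and 4382 ± 70.9 CPM in RRP40, and snR84 341 ± 25.4 CPM in rrp40-W195R and 532 ± 23.0 CPM in RRP40 (SD, n = 3 each). snR44 averaged 88.5 ± 11.9 CPM in rrp40-W195R and 113 ± 3.24 CPM in RRP40 (SD, n = 3 each), a log2 fold change of -0.36 that was -0.03 and not called by library totals (adjusted p = 0.755).

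In rrp46-L191H, which alters a subunit of the core ring, 10 members rose and 8 fell, where 31.4% of all features were higher and 31.0% lower. By library totals 15 were higher and 5 lower, where the shares of all features were 47.6% and 16.9%, with a shift of 0.17 in their median. The number lower was also 5 without replicate 1 and without replicate 2 of rrp46-L191H. snR10 had 13.9, 15.9 and 13.6 CPM in rrp46-L191H, against 3.85, 4.14 and 3.81 CPM in RRP46. This 3.68-fold increase was the largest of any member in this mutant (log2 fold change 1.88, SE 0.09, adjusted p = 5.47e-09). snR30 averaged 8123 ± 437 CPM in rrp46-L191H and 8048 ± 941 CPM in RRP46 (SD, n = 3 each), with overlapping groups (adjusted p = 0.893).

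snR80 had 65.3, 60.8 and 62.7 CPM in rrp46-L191H, against 29.5, 26.5 and 18.8 CPM in RRP46. It was 2.53-fold higher in rrp46-L191H (log2 fold change 1.34, SE 0.16, adjusted p = 0.000558). snR49 averaged 237 ± 6.28 CPM in rrp46-L191H and 119 ± 11.9 CPM in RRP46, and snR5 148 ± 1.71 CPM in rrp46-L191H and 101 ± 16.0 CPM in RRP46 (SD, n = 3 each), with log2 fold changes of 0.99 and 0.55. The intronic snR44 had the largest decrease, with 82.2, 79.0 and 88.6 CPM in rrp46-L191H, against 215, 176 and 216 CPM in RRP46. It was 2.43-fold lower (log2 fold change -1.28, SE 0.08, adjusted p = 1.29e-06). snR84 averaged 361 ± 28.8 CPM in rrp46-L191H and 581 ± 41.9 CPM in RRP46 (SD, n = 3 each), a log2 fold change of -0.68 (SE 0.06). snR191 had 403, 419 and 475 CPM in rrp46-L191H, against 838, 593 and 548 CPM in RRP46. All mutant libraries were lower (log2 fold change -0.61, SE 0.18, adjusted p = 0.0345), but the call was lost by library totals (adjusted p = 0.0739) and without RRP46 replicate 2 (0.0643) or rrp46-L191H replicate 1 (0.0772) or 2 (0.0792).

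These 4 mutants have no control libraries in common. Called increases were found in all 4 for 7 members, namely snR5, snR10, snR35, snR49, snR80, snR81 and snR161, where 10.7% of all features tested in the 4 comparisons were higher in all of them. Called decreases in all 4 were found for 5 members, namely snR43, snR44, snR84, snR86 and snR191, where the share of all features was 12.3%. By library totals the same 7 were among 11 members higher in all 4 mutants, and only snR84 was lower in all 4, where the shares of all features were 32.3% and 2.91%. The shared increases include guides for each target class, with the 18S guides snR35 and snR161, the 25S guides snR5 and snR10, snR49 and snR80 for both rRNAs and snR81 for 25S and U2. Both intronic members were among the shared decreases. The decrease of snR86 in rrp46-L191H was small, 4311 ± 92.0 CPM in rrp46-L191H and 4694 ± 173 CPM in RRP46 (SD, n = 3 each), and its log2 fold change of -0.12 became 0.05 by library totals.

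**Figure D2:**
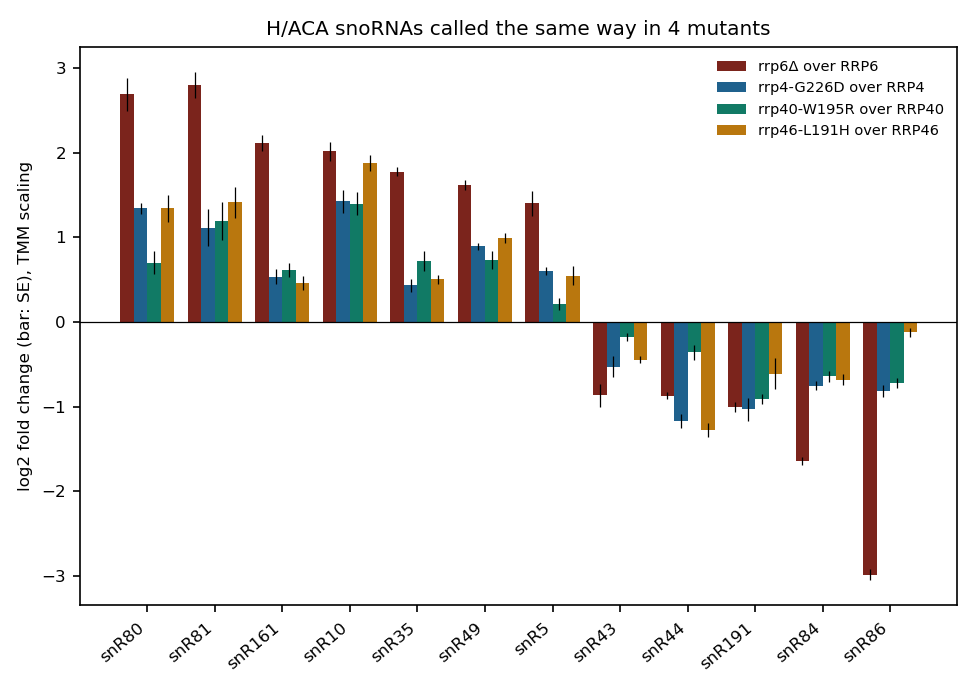
Log2 fold changes after TMM scaling (vertical axis, bars from 0, error bars SE) of the 12 H/ACA snoRNAs that were called in the same direction in the 4 mutants of the key, each over its own control, with 3 libraries a group. rrp6Δ gave the tallest bars for snR80, snR81, snR161 and snR35, and snR86 ranged from -2.98 in rrp6Δ to -0.12 in rrp46-L191H, where its sign was positive by library totals, as was that of snR43 in rrp40-W195R.

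By target class and after TMM scaling, the 17 guides for 25S rRNA alone split into 4 higher and 8 lower in rrp6Δ, 6 and 5 in rrp4-G226D, 6 and 6 in rrp40-W195R and 4 and 5 in rrp46-L191H. The 6 guides for 18S rRNA alone gave 2 and 2, 2 and 3, 3 and 1, and 2 and 2 in the same order. Higher and lower shares of all features were 42.6% and 40.9% in rrp6Δ, 36.1% and 35.9% in rrp4-G226D, 26.0% and 26.5% in rrp40-W195R and 31.4% and 31.0% in rrp46-L191H, and the classes were not tested against each other. The 4 guides for both rRNAs gave 2 higher and 2 lower in rrp6Δ, 3 and 1 in rrp4-G226D, 2 and 1 in rrp40-W195R and 3 and 1 in rrp46-L191H. In each of the last 3 mutants the member of this class that fell was snR44.

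The other mutants changed fewer members. In rrp40-S87A, 7 were higher and 6 lower than in RRP40, where 7.69% of all features were higher and 7.80% lower. None of the 13 changed by 2-fold. The largest increases were in snR3, with 343, 391 and 455 CPM in rrp40-S87A, against 278, 288 and 246 CPM in RRP40, and in the 18S guide snR85, with 68.0, 65.7 and 73.6 CPM in rrp40-S87A, against 45.7, 49.8 and 48.8 CPM in RRP40. Both sets of libraries stood apart, with log2 fold changes of 0.55 (SE 0.11, adjusted p = 0.0159) and 0.52 (SE 0.06, adjusted p = 0.000101). The 25S guide snR9 averaged 148 ± 7.36 CPM in rrp40-S87A and 121 ± 9.05 CPM in RRP40 (SD, n = 3 each). Decreases were small, with 347 ± 6.32 CPM in rrp40-S87A and 429 ± 45.6 CPM in RRP40 for the 25S guide snR42, 366 ± 37.0 CPM in rrp40-S87A and 452 ± 28.4 CPM in RRP40 for snR11 and 156 ± 8.88 CPM in rrp40-S87A and 182 ± 6.14 CPM in RRP40 for snR82, both 25S guides (SD, n = 3 each). Their log2 fold changes were -0.31, -0.30 and -0.22. snR44 was at 0.23 and snR191 at -0.22, so snR44 was higher here. Of these 8 named members snR85, snR9 and snR42 kept the call whichever of the 6 libraries was left out, and of these only snR85 kept it in a fit of all 39 libraries. The call of snR3 was lost without rrp40-S87A replicate 2 (adjusted p = 0.0784), that of snR82 without RRP40 replicate 2 (0.0779) and that of snR11 without RRP40 replicate 2 (0.0779) or rrp40-S87A replicate 3 (0.0700). Those of snR44 and snR191 were lost without any of several libraries, RRP40 replicates 2 and 3 and rrp40-S87A replicate 1 for both, RRP40 replicate 1 for snR44 and rrp40-S87A replicate 3 for snR191, with adjusted p-values of 0.0579 to 0.131. Without RRP40 replicate 2, 1 member was called lower in place of 6.

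In rrp46-L127T no member was higher and 1 was lower than in RRP46, where 2.63% of all features were higher and 2.62% lower. This was the 18S guide snR36, with 101, 88.9 and 80.5 CPM in rrp46-L127T, against 131, 112 and 131 CPM in RRP46 (log2 fold change -0.47, SE 0.09, adjusted p = 0.0207). Its call was lost without RRP46 replicate 1 or 3 or rrp46-L127T replicate 2, and without rrp46-L127T replicate 1 the number lower was 2. In edgeR 4 members had an unadjusted p under 0.05, and DESeq2 called 0 higher and 4 lower. In rrp46-Q86I edgeR called no member, where 0.410% of all features were higher and 0.106% lower. Of the 29, 3 had an unadjusted p under 0.05, DESeq2 called 1 higher and 1 lower, and edgeR called 3 higher without RRP46 replicate 1 and 1 lower without rrp46-Q86I replicate 2. In rrp45-I15P edgeR called no member, where 0.0266% of all features were higher and 0.00% lower. An unadjusted p under 0.05 was reached by 2 members, and DESeq2 called 0. Shares of all features are not given here for the unadjusted or DESeq2 counts of these 3 mutants, so they are not read as changes of members. Log2 fold changes of members ran from -0.28 to 0.43 in rrp46-Q86I. In rrp45-I15P they ran from -0.30 to 0.36.

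**Figure D3:**
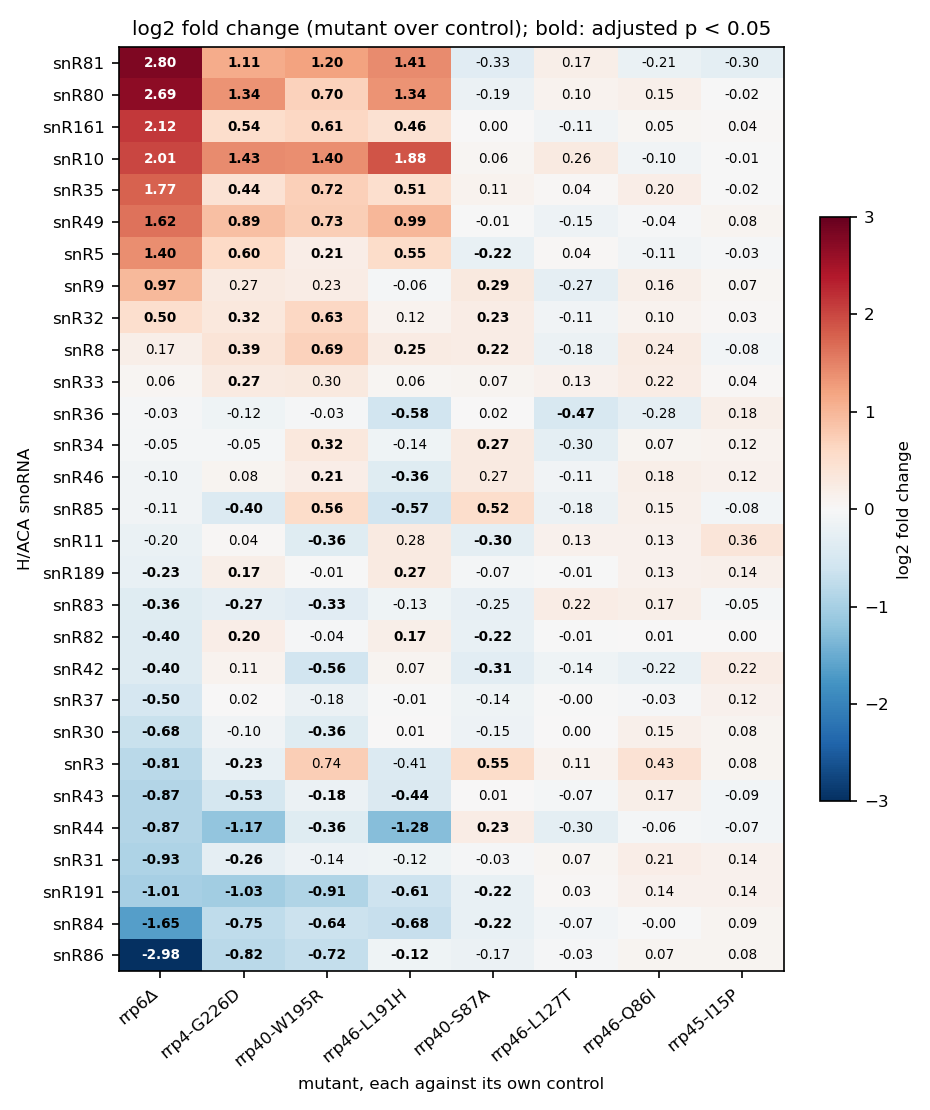
Log2 fold change after TMM scaling of each of the 29 H/ACA snoRNAs (rows, ordered by rrp6Δ) in the 8 mutants (columns), each over its own control with 3 libraries a group; red is higher and blue lower in the mutant, and bold marks an adjusted p under 0.05. Bold values fill most of the 4 columns at the left, thin out in rrp40-S87A and number 1 in rrp46-L127T and 0 in rrp46-Q86I and rrp45-I15P; by library totals many of the pale blue values turn positive.

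Alleles of one gene were compared directly. Between rrp40-W195R and rrp40-S87A 14 members differed, 10 higher and 4 lower in rrp40-W195R, where 38.8% of all features differed. The largest increase was in snR81, with 1.67, 1.94 and 1.42 CPM in rrp40-W195R, against 0.454, 0.761 and 0.518 CPM in rrp40-S87A (log2 fold change 1.54, SE 0.26, adjusted p = 0.000724). The largest decrease was in snR191, with 353, 324 and 337 CPM in rrp40-W195R, against 506, 575 and 543 CPM in rrp40-S87A. The libraries did not overlap (log2 fold change -0.68, SE 0.06, adjusted p = 1.49e-05). All 14 were called in the same direction by library totals.

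Between rrp46-L191H and rrp46-Q86I 20 members differed, 9 higher and 11 lower in rrp46-L191H, where 64.4% of all features differed. Between rrp46-L191H and rrp46-L127T 15 differed, 10 higher and 5 lower, where the share of all features was 51.5%. snR10 and snR44 were at the extremes of both comparisons, which share the rrp46-L191H libraries. snR10 averaged 14.2 ± 1.24 CPM in rrp46-L191H and 3.62 ± 0.363 CPM in rrp46-Q86I (SD, n = 3 each), and set against rrp46-L127T it was 3.05-fold higher in rrp46-L191H (log2 fold change 1.61, SE 0.11, adjusted p = 3.47e-07). snR44 averaged 82.0 ± 4.82 CPM in rrp46-L191H and 192 ± 11.5 CPM in rrp46-Q86I (SD, n = 3 each), and was 1.98-fold lower in rrp46-L191H than in rrp46-L127T (log2 fold change -0.99, SE 0.11, adjusted p = 0.0002). The snR33 and snR86 decreases against rrp46-Q86I changed sign by library totals. Between rrp46-L127T and rrp46-Q86I edgeR called no member, where 0.604% of all features differed. Here 7 members had an unadjusted p under 0.05 and DESeq2 called 4, and edgeR called 6 without rrp46-L127T replicate 1. The shares of all features for these 3 counts are not given here, so they are not read as differences of members.

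The effects of different mutations, each relative to its own control, were set against each other in fits of 12 libraries. The effect of rrp4-G226D differed from that of rrp6Δ for 19 members, where 48.6% of all features differed. The effect of rrp40-W195R differed from it for 20, where the share was 61.4%, and that of rrp46-L191H for 20, where the share was 71.3%. snR86 had the largest difference in all 3. Its log2 fold changes were -0.82 in rrp4-G226D, -0.72 in rrp40-W195R and -0.12 in rrp46-L191H, against -2.98 in rrp6Δ. The fitted differences were 2.14 (SE 0.10), 2.26 (SE 0.09) and 2.86 (SE 0.08), with adjusted p-values of 6.55e-11, 7.51e-12 and 1.83e-15. Among increases, snR81 rose less in rrp4-G226D than in rrp6Δ by -1.71 (SE 0.28). snR80 differed by -1.99 (SE 0.26) in rrp40-W195R and snR161 by -1.66 (SE 0.14) in rrp46-L191H. The 3 fits share the rrp6Δ and RRP6 libraries, and mutation and strain background cannot be told apart in a difference of effects. Counts of members whose effects differed, here and between the missense alleles, are not read as particular to the class.

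Between the missense alleles, the effect of rrp4-G226D differed from that of rrp40-W195R for 10 members, where 37.3% of all features differed, and for 6 without rrp4-G226D replicate 3. The effect of rrp46-L191H differed from it for 12, where the share was 34.5%. Of the called members, snR85 and snR44 had the largest differences in both. That of snR3, named after its values were seen, was larger but was not called, at -0.97 (adjusted p = 0.0595) in rrp4-G226D and -1.17 (adjusted p = 0.0624) in rrp46-L191H, where it was called by library totals (adjusted p = 0.0437). The 18S guide snR85 was at -0.40 in rrp4-G226D and -0.57 in rrp46-L191H, against 0.56 in rrp40-W195R. The fitted differences were -0.96 (SE 0.24, adjusted p = 0.0116) and -1.15 (SE 0.22, adjusted p = 0.00311). snR44 fell further in rrp4-G226D by -0.82 and in rrp46-L191H by -0.95 than in rrp40-W195R.

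The rrp6Δ fold changes of the 29 members were set beside their control levels and annotated lengths, as a description, since members share the libraries and the depth. snR81, snR10, snR161 and snR80, at the scarce end in controls, had log2 fold changes of 2.80, 2.01, 2.12 and 2.69. snR86 and snR84, the longest guides, had the largest decreases, at -2.98 and -1.65, while snR80 and snR161 have 171 and 161 bases. Over all 29 members the Spearman rank correlation with the rrp6Δ fold change was -0.67 for length. It was -0.79 for the level per kb in the 12 control libraries other than RRP6. Single members departed from both trends, such as snR85, which ranks 25 of the 29 by control level. snR85, also with 171 bases, and snR36, with 182, were at -0.11 and -0.03 and not called, and snR10 and snR81 have 245 and 201 bases.

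**Figure D4:**
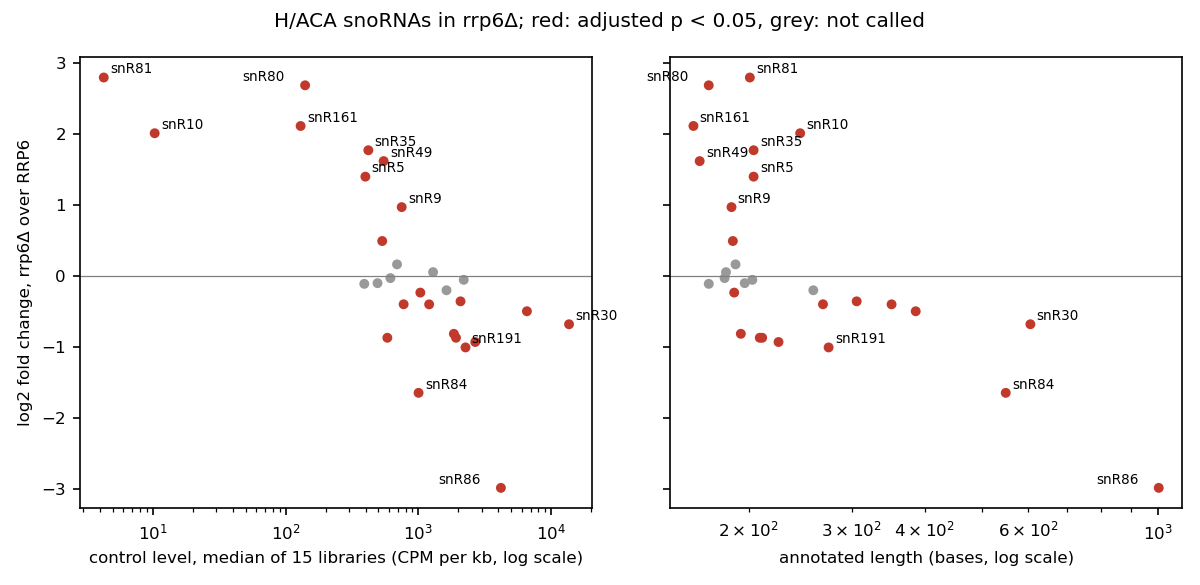
Log2 fold change in rrp6Δ over RRP6 after TMM scaling (vertical axis, 3 libraries a group) of the 29 H/ACA snoRNAs against their median level in the 15 control libraries (left, CPM per kb, log axis) and against annotated length (right, bases, log axis); red points have an adjusted p under 0.05. The members at the scarce end, snR81, snR10, snR161 and snR80, lie at 2.01 or above, and snR86, with 1004 bases, lies lowest at -2.98.

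The intronic members did not always change in the direction of their host genes. RPS22B, the ribosomal protein gene that holds snR44, averaged 155 ± 13 CPM in rrp6Δ and 276 ± 25.3 CPM in RRP6 (SD, n = 3 each), and 229 ± 2.11 CPM in rrp46-L191H and 188 ± 9.63 CPM in RRP46. In rrp6Δ its log2 fold change was -0.83, in rrp4-G226D -0.37, in rrp40-W195R -0.30 and in rrp46-L191H 0.28, all called, beside -0.87, -1.17, -0.36 and -1.28 for snR44. In rrp46-L191H the host was thus higher and the snoRNA lower, under both scalings. NOG2, the ribosome assembly gene that holds snR191, changed by -0.37, -0.18, 0.45 and 0.54 in the same order, all called, beside -1.01, -1.03, -0.91 and -0.61 for snR191. By library totals NOG2 was higher in all 4 mutants. Reads from unspliced host transcripts also cover these snoRNAs, and the difference between host and snoRNA was not tested.

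The next gene downstream on the same strand was described for the 27 members with genes of their own, of which 25 had a neighbour that passed the filter on low counts; those of snR30 and snR32 did not. In rrp6Δ 8 of these 25 neighbours were higher and 14 lower, or 15 and 6 by library totals. Of the 13 that start within 1000 bases, 5 were higher and 7 lower, where 42.6% and 40.9% of all features were called, or 9 and 3 by library totals, where the shares were 74.2% and 14.4%. The largest increase was in USE1, 286 bases past snR82, with 247 ± 4.77 CPM in rrp6Δ and 83.7 ± 3.43 CPM in RRP6 (SD, n = 3 each, log2 fold change 1.57, adjusted p = 6.41e-14). HEM4, a heme synthesis gene 210 bases past snR5, averaged 55.0 ± 1.66 CPM in rrp6Δ and 28.0 ± 4.56 CPM in RRP6 (SD, n = 3 each). It was higher in rrp6Δ by 0.99, but its log2 fold change was -0.21 in rrp4-G226D, -0.01 in rrp40-W195R and -0.16 in rrp46-L191H. USE1 was at 0.39, 0.38 and 0.10 in the same 3 mutants, and the last was not called. The largest decreases in rrp6Δ were in BIO3, which starts 18006 bases past snR49, at -1.76, and in the ribosomal protein gene RPS14A, 389 bases past snR189, at -1.48. Both stayed negative by library totals. Within 1000 bases 2 neighbours were higher and 6 lower in rrp4-G226D, 6 and 4 in rrp40-W195R and 4 and 3 in rrp46-L191H. Of all features, 36.1% were higher and 35.9% lower in rrp4-G226D, 26.0% and 26.5% in rrp40-W195R and 31.4% and 31.0% in rrp46-L191H.

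The genes of the H/ACA particle, CBF5, NHP2, NOP10 and GAR1 for its core proteins and NAF1 and SHQ1 for its assembly, moved with scaling. In rrp6Δ all 6 were lower after TMM scaling, led by NHP2 with 149.7 ± 1.57 CPM in rrp6Δ and 278 ± 12.3 CPM in RRP6 and GAR1 with 180.4 ± 10.1 CPM in rrp6Δ and 322 ± 8.20 CPM in RRP6 (SD, n = 3 each). By library totals 2 of the 6 were higher and 2 lower, and NAF1 and SHQ1 changed sign to 0.42 and 0.37. In rrp4-G226D 0 were higher and 5 lower, or 2 and 1 by library totals. In rrp40-W195R 3 were higher and 1 lower, or 5 and 0, and in rrp46-L191H 2 were higher and 0 lower, or 6 and 0. Of all features, 42.6% were higher and 40.9% lower in rrp6Δ, and 36.1% and 35.9% in rrp4-G226D. The shares were 26.0% and 26.5% in rrp40-W195R, and 31.4% and 31.0% in rrp46-L191H. By library totals they were 74.2% and 14.4%, 66.8% and 12.1%, 63.6% and 7.87%, and 47.6% and 16.9% in the same order. The assembly factor genes NAF1 and SHQ1 rose in rrp40-W195R and rrp46-L191H under either scaling. NAF1 averaged 74.8 ± 8.80 CPM in rrp40-W195R and 42.3 ± 1.90 CPM in RRP40 (log2 fold change 0.82), and SHQ1 52.1 ± 1.49 CPM in rrp46-L191H and 31.3 ± 1.79 CPM in RRP46 (log2 fold change 0.73; SD, n = 3 each).

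Of the 18 genes for snoRNA 3′ end formation and trimming, a list that includes RRP6, 5 were higher and 10 lower in rrp6Δ, or 14 and 4 by library totals. In rrp4-G226D 7 were higher and 8 lower, or 12 and 1 by library totals. In rrp40-W195R 15 were higher and 1 lower, and in rrp46-L191H 16 and 0, or 16 and 0 and 17 and 0 by library totals. The shares of all features higher and lower in these 4 mutants, under both scalings, are given below beside the box C/D counts. NRD1 was among the largest increases in rrp6Δ, with 425 ± 9.58 CPM in rrp6Δ and 266 ± 9.75 CPM in RRP6, and in rrp46-L191H, with 481 ± 23.4 CPM in rrp46-L191H and 292 ± 11.9 CPM in RRP46 (SD, n = 3 each). LHP1, the yeast La protein that binds RNA 3′ ends, had the largest decrease after RRP6 itself in rrp6Δ, 98.5 ± 1.11 CPM in rrp6Δ and 205 ± 13 CPM in RRP6 (SD, n = 3 each). The box C/D snoRNAs, which guide methylation and share this 3′ end pathway, gave 32 higher and 10 lower of 46 in rrp6Δ, 25 and 10 in rrp4-G226D, 33 and 5 in rrp40-W195R and 24 and 12 in rrp46-L191H. The shares of all features higher and lower were 42.6% and 40.9%, 36.1% and 35.9%, 26.0% and 26.5%, and 31.4% and 31.0% in the same order. By library totals the C/D numbers were 38 and 1, 33 and 1, 39 and 2, and 27 and 9, where the shares of all features were 74.2% and 14.4%, 66.8% and 12.1%, 63.6% and 7.87%, and 47.6% and 16.9%. Their summed share was 1.25% to 1.41% of the library in rrp6Δ, against 0.991% to 1.11% in RRP6, without overlap, while the summed H/ACA shares overlapped. In the other strong mutants the summed C/D shares overlapped too. They were 1.39% to 1.49% in rrp4-G226D, against 1.14% to 1.45% in RRP4. In rrp40-W195R they were 1.30% to 1.37%, against 1.17% to 1.35% in RRP40, and in rrp46-L191H 1.44% to 1.52%, against 1.26% to 1.59% in RRP46. The difference between the classes was not tested.

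In the authors' deposited tables, at their adjusted p under 0.05, H/ACA snoRNAs counted 9 higher and 13 lower in rrp6Δ, 12 and 10 in rrp4-G226D, 14 and 11 in rrp40-W195R and 10 and 7 in rrp46-L191H. The authors' deposited tables gave 4 and 6 in rrp40-S87A, 0 and 3 in rrp46-L127T and 0 in either direction in rrp46-Q86I and rrp45-I15P. Shares of all features called in the deposited tables are not given here, so these counts stand without a background.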

How the data were processed

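RNA-seq counts of 39 libraries were analysed. The authors deposited raw counts of reads per feature, whole numbers for 8898 features in each library, and tables of log2 fold changes with p-values for the 8 mutants. STAR, featureCounts 1.22.2, StringTie 2.1.7, DESeq2 1.38.1 and build R64 are named in the submitters' processing notes, and the labels' protocols give rRNA depletion and the Zymo-Seq RiboFree kit. The count columns refer to alignments with duplicates marked, per the file headers. Strand use and the treatment of multiply mapped or overlapping reads are not given in the sources used here. The mean normalized count in these deposited tables, treated as a score, was not used; their adjusted p-values gave counts of calls.

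Each comparison was fitted in R 4.3.3 with edgeR 4.0.16 on its own 6 libraries (12 for differences of effects), with filterByExpr, TMM scaling, a robust two-sided quasi-likelihood test and Benjamini-Hochberg adjustment over all features; a call is an adjusted p under 0.05. CPM are TMM-scaled. Members were taken by class name and not by any value, but they and the lists were chosen with earlier results of these data known. Values per library, or means with SD, were given for the 3 largest rises and falls with no overlap and at least 10 CPM. The same was done for snR10, snR30, snR44 and snR191 where called, except that snR44 and snR191 in rrp40-S87A have fold changes alone. snR30 was also given uncalled in rrp4-G226D and rrp46-L191H. Of the alleles the largest difference in each direction was named, of the differences of effects the 2 largest, and of other lists and neighbouring genes up to 2 each way. Alternatives were library totals, DESeq2 1.42.0, no filter, at least 2-fold, a fit of all libraries, a replicate block and leaving out each library. The procedure was tested on simulated data in which few genes changed, as many up as down. Such data could not test the choice of scaling where many features changed, as in rrp6Δ. The design text calls the replicates biological; no 2 libraries of a group agreed within sampling noise. Errors cover the spread of 3 cultures a group.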

Additional observations from a re-analysis of the deposited data

Results flagged for a closer look

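The effects of mutations in different subunits, each relative to its own control, differed in tests of the difference itself (edgeR, 12 libraries, adjusted over all features). Against rrp6Δ, the effect differed for 19 of 29 H/ACA snoRNAs in rrp4-G226D, for 20 in rrp40-W195R and for 20 in rrp46-L191H, where 48.6%, 61.4% and 71.3% of all features differed. These counts, and those against rrp40-W195R below, are not read as particular to the class. Mutation and strain background cannot be told apart in any of these differences. snR86 was the largest of these, with log2 differences of 2.14, 2.26 and 2.86, that is, smaller decreases in the missense mutants than in rrp6Δ. The increases were smaller in the missense mutants for snR81 in rrp4-G226D (-1.71), snR80 in rrp40-W195R (-1.99) and snR161 in rrp46-L191H (-1.66).

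Against rrp40-W195R, the effect differed for 10 members in rrp4-G226D and for 12 in rrp46-L191H, where 37.3% and 34.5% of all features differed. snR85 differed by -0.96 in rrp4-G226D and by -1.15 in rrp46-L191H, being lower than control in these mutants and higher in rrp40-W195R. snR44 differed by -0.82 and -0.95 in the same 2 mutants. In replicate 2 of rrp40-W195R snR85 was lowest of its 3 libraries, as were snR3, snR35 and snR80.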

How the results depend on the processing

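Scaling by library totals was the only alternative run that changed the sign of a called difference, in 14 cases. In rrp6Δ the log2 fold change became 0.37 for snR189, 0.11 for snR37, 0.20 for snR42, 0.21 for snR82 and 0.25 for snR83, and all but snR37 were then called higher. In rrp4-G226D it became 0.10 for snR3, 0.067 for snR31 and 0.061 for snR83. In rrp40-W195R it became 0.16 for snR43, then called higher, and 0.0058 for snR83. It became 0.045 for snR86 in rrp46-L191H, and in rrp46-L191H against rrp46-Q86I 0.040 for snR33 and 0.012 for snR86. The difference in effect on snR43 between rrp46-L191H and rrp6Δ became -0.013. The filter moved no count by over 1.5 times. The same scaling by library totals gave 20 higher and 5 lower in rrp6Δ, 20 and 4 in rrp4-G226D, 20 and 3 in rrp40-W195R, 5 lower in rrp46-L191H and 2 lower in rrp46-L127T. Requiring at least 2-fold left 3 lower in rrp6Δ, 3 higher and 2 lower in rrp4-G226D, 2 and 0 in rrp40-W195R, 3 and 1 in rrp46-L191H, 0 and 0 in rrp40-S87A and 0 lower in rrp46-L127T. With that limit 2 members differed between rrp40-W195R and rrp40-S87A, 5 between rrp46-L191H and rrp46-Q86I and 4 between rrp46-L191H and rrp46-L127T. The effects of rrp4-G226D, rrp40-W195R and rrp46-L191H then differed from that of rrp6Δ for 5, 8 and 6, and from that of rrp40-W195R for 0 in rrp4-G226D and 1 in rrp46-L191H. One fit of all 39 libraries gave 1 higher and 2 lower in rrp40-S87A, 2 lower in rrp46-L127T and 3 that differed between rrp46-L127T and rrp46-Q86I. DESeq2 gave 4 lower in rrp46-L127T, 1 higher and 1 lower in rrp46-Q86I and 4 between rrp46-L127T and rrp46-Q86I. The cause of these moves was not tested. Shares of all features are not given for the counts per comparison at unadjusted p, at 2-fold, by DESeq2 or in the fit of all libraries. Nor are they given below for the replicate block or for libraries left out. The members higher in all 4 strong mutants numbered 11 by library totals, 6 in the fit of all libraries and 7 otherwise, and those lower in all 4 numbered 1, 3 and 4 to 5. Of all features, 32.3%, 11.5% and 7.95% to 10.7% were higher in all 4 in the same order, and 2.91%, 11.7% and 10.95% to 12.3% lower.

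Replicate numbers did not pair libraries. Same-numbered libraries of compared groups had deviations correlated at -0.34 to 0.27, no comparison had all 3 pairs over 0.1, and in 14 of 36 cases a library correlated best with its own number in the compared group. A replicate block gave 1 higher in rrp46-Q86I, 2 higher in rrp45-I15P and 2 between rrp46-L127T and rrp46-Q86I, moved no other count by over 1.5 times, and left snR191 uncalled in rrp46-L191H (adjusted p = 0.0710).

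Leaving out each library in turn gave, for members higher and lower, 9 to 9 and 13 to 14 in rrp6Δ, 11 to 13 and 8 to 10 in rrp4-G226D, 9 to 13 and 8 to 10 in rrp40-W195R, and 9 to 12 and 5 to 9 in rrp46-L191H. The ranges were 6 to 7 and 1 to 6 in rrp40-S87A, 0 to 0 and 0 to 2 in rrp46-L127T, 0 to 3 and 0 to 1 in rrp46-Q86I, and 0 to 0 in both directions in rrp45-I15P. Between alleles they were 12 to 16 for rrp40-W195R and rrp40-S87A, 19 to 24 for rrp46-L191H and rrp46-Q86I, 13 to 20 for rrp46-L191H and rrp46-L127T, and 0 to 6 for rrp46-L127T and rrp46-Q86I. The effects differed from rrp6Δ for 18 to 21 in rrp4-G226D, 18 to 22 in rrp40-W195R and 20 to 23 in rrp46-L191H, and from rrp40-W195R for 6 to 13 in rrp4-G226D and 9 to 16 in rrp46-L191H.

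Depth limits snR81 and snR10, whose lowest counts were 13 and 24, and the counts do not separate mature snoRNA from precursor. The 3 cultures a group limit the detection of small differences.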
